A study of Drosophila melanogaster with 6 samples.

Results

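Transcripts that FlyBase named CR followed by 5 digits, a name given to genes without an annotated protein product, were described in Drosophila S2 cells in which NAP-1 or CBP had been knocked down, and in their control knockdown. The members were selected on measured values: a CR symbol was kept when its mean over the 6 samples was at least 1 RPKM (reads scaled to transcript length and to the sample's alignments) after summing per symbol and dropping columns that repeat another gene's values. This gave 132 members among 3987 analysed genes. The table held 667 CR-named columns, of which 534 lay below the threshold and 133 reached it. The remaining one, CR44097, repeated the values of the protein-coding gene CG6000 in every sample and was left out. Just inside the threshold were CR45187, with a mean of 1.03 RPKM, and CR44381, also at 1.03 RPKM, and just outside were CR45639 at 0.999 RPKM and CR43685 at 0.981 RPKM.

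S2 is an established cell line derived from Drosophila embryos with properties of blood cells. All 3 groups of 2 samples were S2 cells grown in Schneider's medium with serum. The labels name the knocked-down gene (control, NAP-1 or CBP), but not the reagents or duration, the target of the control knockdown or whether the 2 samples of a group were separate cultures. The p-values therefore reflect the spread of the samples at hand, possibly technical, and no more. Libraries were made with a stranded kit that selects polyadenylated RNA and were sequenced on an Illumina MiSeq.

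Long noncoding RNAs are transcripts with no evident long reading frame, many of them spliced, capped and polyadenylated like mRNA. Antisense RNAs are noncoding transcripts made from the strand opposite a gene, so that their exons can pair with, and share genomic bases with, the RNA of that gene. Hairpin RNAs fold back on themselves and, in flies, are cut by Dicer-2 into endogenous small interfering RNAs. NAP-1 is a histone chaperone that carries histones to and from chromatin, and CBP, encoded by nejire (nej), is an acetyltransferase of histones and other proteins that acts as a transcriptional coactivator.

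The targeted genes were read first. Nap1 stood at 219.6 and 242.8 RPKM in control, 20.6 and 26.5 RPKM in NAP-1 knockdown and 325 and 365 RPKM in CBP knockdown, a log2 difference of -3.25 ± 0.27 (SE) in NAP-1 knockdown against control (adjusted p = 0.0296). Expression of nej was 3.25 and 2.47 RPKM in control, 1.26 and 2.41 RPKM in NAP-1 knockdown and 0.899 and 0.364 RPKM in CBP knockdown, a log2 difference of -1.26 ± 0.37 in CBP knockdown (adjusted p = 0.0466). Both targets were lower in the samples labelled with them, and NAP-1 knockdown replicate 1 also had a low nej value. The authors counted 4162019 to 5362319 alignments per sample. Of 14 blood cell markers, 9 were read, and 5 of them, among them the collagen gene vkg and the extracellular protein gene Glt, had a mean of at least 1 RPKM, while the defining blood cell genes srp, Hml, NimC1 and lz were each below it in the isoforms read. The summed blood marker level was 235 and 207 RPKM in control, 141 and 174 RPKM in NAP-1 knockdown and 61.2 and 37.6 RPKM in CBP knockdown. Of 10 markers of other cells, 5 were read, and their sum was between 0.268 and 3.27 RPKM, most of it elav, with nSyb, Mhc, Act88F and vas at most 0.282 RPKM in any sample. Whether the lower blood markers are related to any change of a CR-named transcript was not tested, and in bulk RNA fewer cells of a type and less RNA per cell cannot be told apart.

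In the annotation, 67 members are long noncoding RNAs, 58 are antisense RNAs, 5 belong to other classes and 2 (CR41620 and CR40679) had no match. The other classes hold CR32207, a hairpin RNA; CR41548, an 18S ribosomal RNA; CR40741, a 28S ribosomal RNA pseudogene; CR43708, a small nuclear RNA; and CR43051. The last goes against its name, since the current annotation gives it as protein-coding. The members were short, with a median length of 696 nt against 1703 nt over the analysed genes with a length, and 112 of the 130 members with a length have 1 annotated transcript. All 58 antisense members lie over a protein-coding gene on the other strand, 3 of them over genes on both strands. Of the long noncoding RNAs, 38 lie apart from any protein-coding gene, 17 over one on the other strand, 11 over one on the same strand and 1 over genes on both strands. Exons of 79 members overlap exons of a protein-coding gene. The kit keeps strand, but whether the authors' counting used it is not stated, so for overlapping genes the reads of the members and of their partners cannot be told apart.

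The members were spread over all major arms. The X chromosome held 34 of them (25.8%, against 18.3% of the other analysed genes), 3R held 13 (9.85% against 23.2%) and the small chromosome 4 held 4 (3.03% against 0.337%). Arms 2L, 3L and 2R held 30, 26 and 22 members.

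Most members were weakly expressed, and CR34335 and CR40469 stood far above the rest. The median member had a mean of 2.73 RPKM, against 5.42 RPKM for the analysed genes, 49 members were below 2 RPKM, and 25 reached 10 RPKM. The long noncoding RNA CR34335 was the most abundant, at 888 and 1093 RPKM in control, 1924 and 626 RPKM in NAP-1 knockdown and 3350.4 and 4211 RPKM in CBP knockdown. Both CBP samples lay above all others, and the control values fell between the NAP-1 samples. CR40469, a 214 nt long noncoding RNA on the X chromosome, followed at 176 and 270.1 RPKM in control, 385 and 354 RPKM in NAP-1 knockdown and 725 and 723 RPKM in CBP knockdown, with no overlap between any of the groups. CR43264, also on the X chromosome, was the third at 51.5 and 39.9 RPKM in control, 74.2 and 57.6 RPKM in NAP-1 knockdown and 90.6 and 112 RPKM in CBP knockdown.

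**Figure D1:**
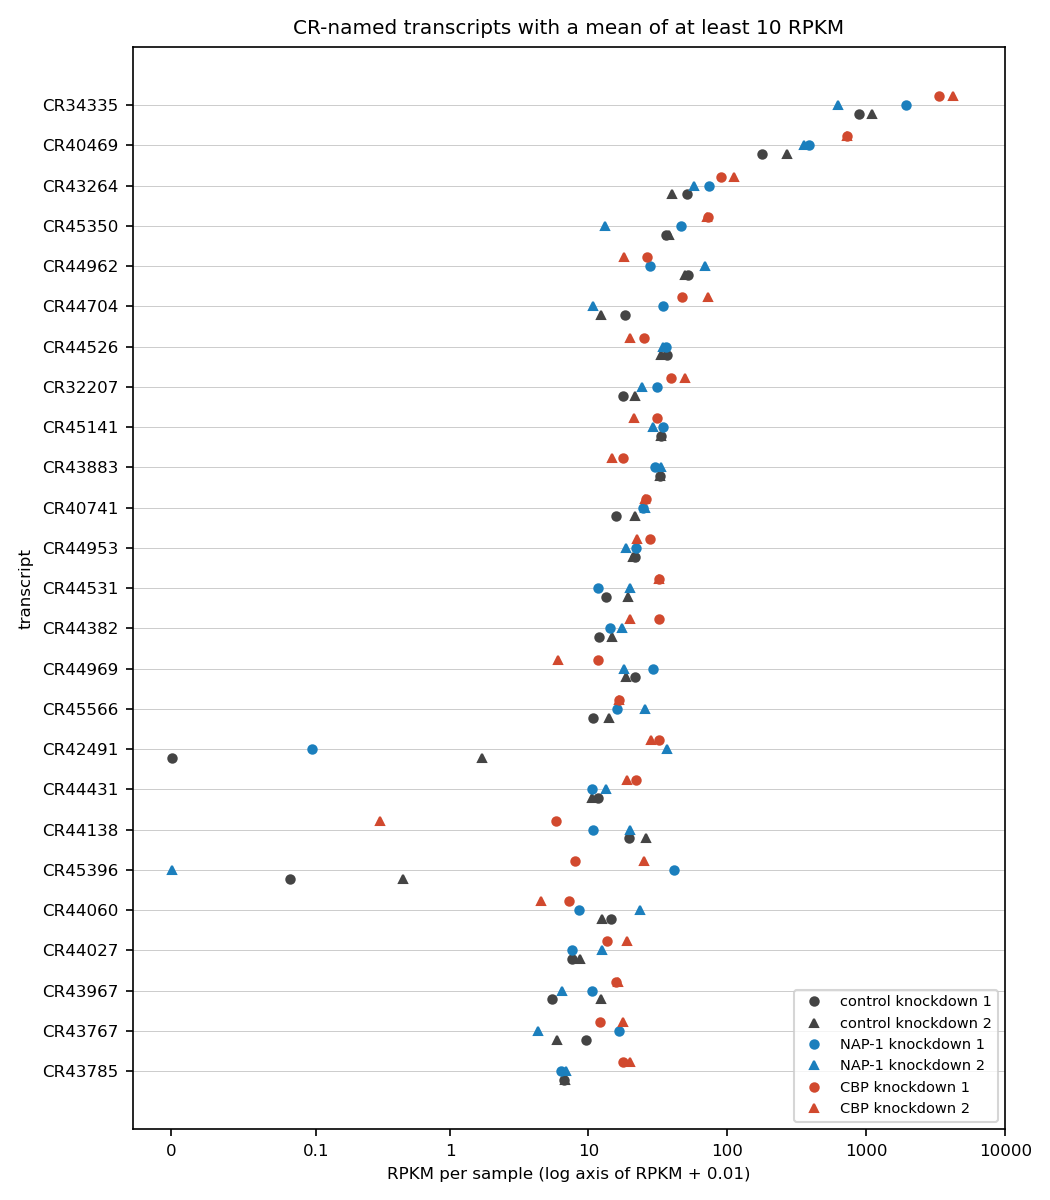
RPKM per sample on a log axis (of RPKM + 0.01) for the 25 CR-named transcripts with a mean of at least 10 RPKM, ordered by mean; circles are replicate 1 and triangles replicate 2, coloured by group. CR34335 and CR40469 lie far to the right of the rest, and CR42491 and CR45396 have samples near 0.

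The CR-named transcripts together held 2.83% and 3.10% of the summed RPKM of the analysed genes in control, 4.54% and 2.81% in NAP-1 knockdown and 6.27% and 7.03% in CBP knockdown. CR34335 alone made up much of this. Without it the share was 1.45% and 1.53% in control, 1.73% and 1.88% in NAP-1 knockdown and 2.06% and 1.95% in CBP knockdown. Both CBP samples still lay above the others, but this remainder includes CR40469. That transcript held 176 and 270.1 of the remaining 927 and 1065 RPKM in control. In NAP-1 knockdown it held 385 and 354 of 1184 and 1257 RPKM, and in CBP knockdown 725 and 723 of 1638 and 1622 RPKM. The share without both transcripts was not computed, so a higher share of the other members is not shown.

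The depth behind the typical member was small. Multiplying RPKM by the annotated length and the sample's alignments gave a median of 8.87 alignments per member and sample, and an exact Poisson 95% interval for 9 alignments runs from 4.12 to 17.1, which covers counting error only. The implied median was under 10 alignments for 68 members and at least 50 for 17. A value below 0.01 RPKM in some sample was found in 29 members, and 8 members were listed at exactly 0 in some sample. Listed values reach down to 3.11e-43 RPKM (CR44417 in control knockdown replicate 1), so a low value here need not be a whole number of reads.

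CBP knockdown against control gave 11 CR-named transcripts that rose and 7 that fell, at an adjusted p under 0.05 in a limma fit over all 3987 genes on log2(RPKM + 1). Of the 11, CR44417 and CR41620 reached the 1 RPKM threshold only through the CBP samples, so their call rests on the values that selected them, which leaves 9 risers. In all, 27 of the 132 members averaged under 1 RPKM over the 4 samples outside their highest group. The X-linked long noncoding RNAs CR34335, CR40469 and CR43264 and the hairpin RNA CR32207 were among those that rose, and CR43900, over the calmodulin gene, had the largest fall. All 11 risers, with CR44417 and CR41620 still counted, were 8.33% of the members, near the 8.5% of all analysed genes called higher. The 9 risers without them are a smaller share. The 7 that fell were 5.30% of the members, against 17.4% of all genes called lower. Sample ranges did not overlap in 41 members that were higher (31.1%, against 33.7% of all genes) and in 42 that were lower (31.8%, against 42.4%). Both counts include members that reached the threshold only through their highest group, such as CR44417 among the higher and CR43683 among the lower. The median log2 difference of the members was -0.04, against -0.15 over all genes, and its sign differs between alternatives. Fold changes on this scale understate those of low transcripts.

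By class, 7 of the 67 long noncoding RNAs rose and 7 fell, with a median log2 difference of 0.12, and of the 58 antisense RNAs 2 rose and none fell, with a median of -0.35. The difference between the classes was not tested. The 37 members with a mean of at least 5 RPKM had a median of 0.82 with 8 risers and 4 that fell, and the 95 below it had a median of -0.18 with 3 and 3. Over all analysed genes, 8.5% were called higher and 17.4% lower, with a median of -0.15. Those genes are not split by level here, so whether the 37 members differ from genes of like level was not tested. The 3 risers below 5 RPKM include CR44417 and CR41620, and the 7 long noncoding risers include CR44417. These 2 reached the 1 RPKM threshold only through their CBP samples.

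Among the long noncoding RNAs that rose, CR34335 had a log2 difference of 1.93 ± 0.57 (adjusted p = 0.0485) and CR40469 one of 1.73 ± 0.33 (adjusted p = 0.0187). CR43264 rose by 1.14 ± 0.29 (adjusted p = 0.0332). CR43785 stood at 6.63 and 6.72 RPKM in control, 6.37 and 6.89 RPKM in NAP-1 knockdown and 17.8 and 19.8 RPKM in CBP knockdown, a difference of 1.37 ± 0.25 (adjusted p = 0.0180). Its control and NAP-1 samples lay together and both CBP samples far above them. CR44316 was at 3.81 and 2.35 RPKM in control, 8.16 and 2.92 RPKM in NAP-1 knockdown and 14.5 and 13.6 RPKM in CBP knockdown (1.91 ± 0.44, adjusted p = 0.0286). CR42861 was at 0.934 and 1.30 RPKM in control, 1.54 and 1.39 RPKM in NAP-1 knockdown and 9.86 and 4.93 RPKM in CBP knockdown (1.93 ± 0.37, adjusted p = 0.0191). In both transcripts the CBP samples exceeded all 4 others.

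CR44417 was listed at or near 0 in control and NAP-1 knockdown, with a highest value of 0.00105 RPKM, and at 4.64 and 2.04 RPKM in CBP knockdown. No fold is given against values near 0. The unmatched CR41620 was at 0.0408 and 0.703 RPKM in control, 3.06 RPKM and near 0 in the NAP-1 samples and 6.96 and 9.14 RPKM in CBP knockdown. Both were members only because of their CBP samples, so these values are a description.

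The hairpin RNA CR32207 was at 17.8 and 21.6 RPKM in control, 31.3 and 24.1 RPKM in NAP-1 knockdown and 39.3 and 49.6 RPKM in CBP knockdown (1.13 ± 0.28, adjusted p = 0.0319). The 3 groups did not overlap. Of the 2 antisense RNAs that rose, CR44704 was at 18.4 and 12.4 RPKM in control, 34.3 and 10.8 RPKM in NAP-1 knockdown and 46.9 and 72.6 RPKM in CBP knockdown (1.88 ± 0.53, adjusted p = 0.0432). CR43964 was at 2.73 and 2.95 RPKM in control, 5.00 and 4.61 RPKM in NAP-1 knockdown and 8.29 and 7.32 RPKM in CBP knockdown (1.20 ± 0.27, adjusted p = 0.0267). The CBP samples were the highest for both, and the NAP-1 samples of CR44704 lay on either side of the control.

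The 7 that fell were all long noncoding RNAs. CR43900 went from 26.9 and 14.6 RPKM in control to 1.05 and 0.387 RPKM in CBP knockdown, with 2.38 and 11.3 RPKM in NAP-1 knockdown (-3.63 ± 0.63, adjusted p = 0.0174). CR45197 was at 9.71 and 7.21 RPKM in control, 3.25 and 7.34 RPKM in NAP-1 knockdown and 0.840 and 0.532 RPKM in CBP knockdown (-2.48 ± 0.40, adjusted p = 0.0166). CR45517, which lies apart from coding genes, was at 11.8 and 9.94 RPKM in control, 5.29 and 13.8 RPKM in NAP-1 knockdown and 1.43 and 0.937 RPKM in CBP knockdown (-2.45 ± 0.44, adjusted p = 0.0176). In all 3 the CBP samples were the lowest, and NAP-1 knockdown replicate 1 was the lowest of the other 4.

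CR44138 was at 19.6 and 25.9 RPKM in control, 10.8 and 19.8 RPKM in NAP-1 knockdown and 5.85 and 0.309 RPKM in CBP knockdown (-2.97 ± 0.73, adjusted p = 0.0323), with the CBP samples far apart. CR42862, the longest of the called members at 5427 nt, was at 8.10 and 2.31 RPKM in control, 1.39 and 1.75 RPKM in NAP-1 knockdown and 0.818 and 0.167 RPKM in CBP knockdown (-1.91 ± 0.52, adjusted p = 0.0397). CR45717 fell by 1.42 on the log2 scale (adjusted p = 0.0239) and CR43883 by 0.98 (adjusted p = 0.0326), the latter from 32.97 and 33.02 RPKM in control to 17.6 and 14.9 RPKM.

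**Figure D2:**
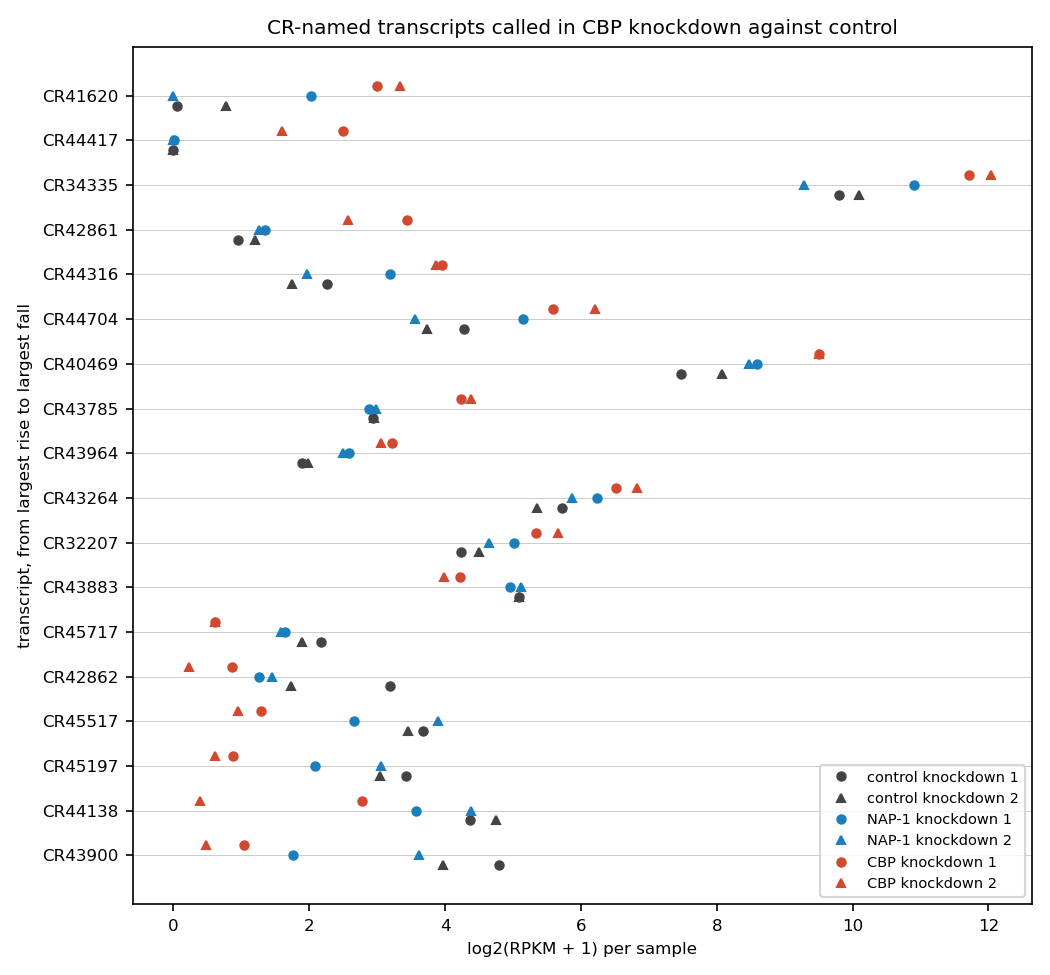
Log2(RPKM + 1) in each of the 6 samples for the 18 CR-named transcripts called in CBP knockdown against control, from the largest rise to the largest fall; circles are replicate 1 and triangles replicate 2, coloured by group. The red CBP points stand to the right of the grey control points in the 11 upper rows and to the left in the 7 lower rows, and the blue NAP-1 points lie mostly near or between them.

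**Figure D3:**
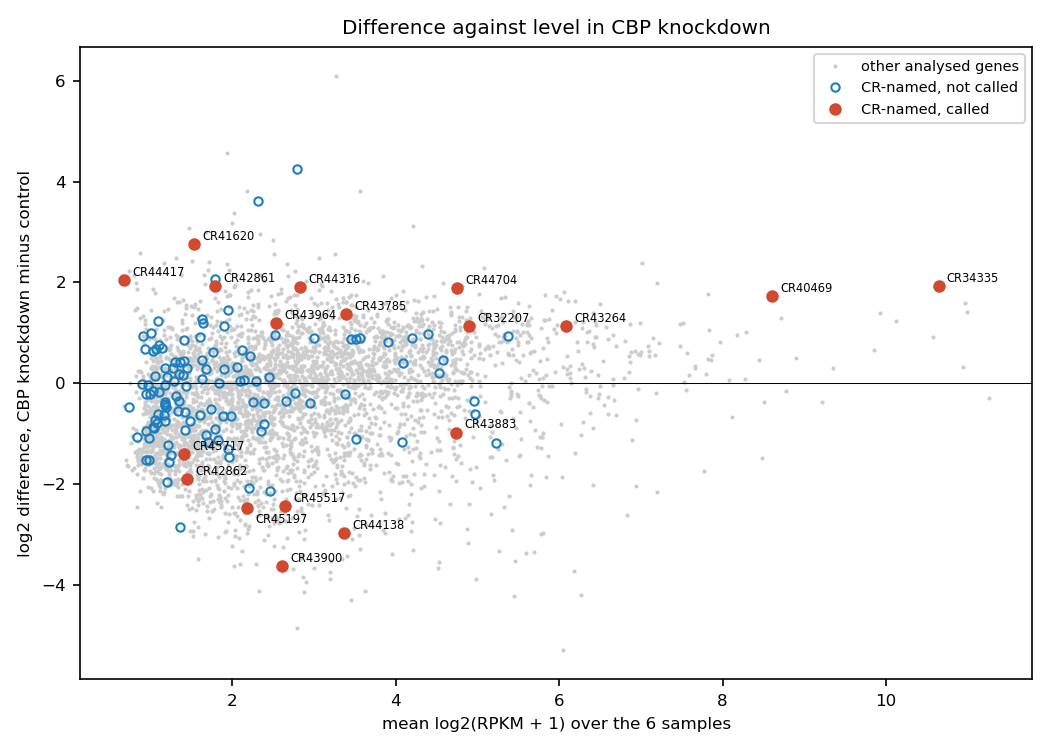
Log2 difference between CBP knockdown and control against mean log2(RPKM + 1) over the 6 samples, for all analysed genes (grey) and the CR-named transcripts (blue circles not called, red called). CR34335 and CR40469 lie at the right with differences of 1.93 and 1.73, and most members lie at the left among low genes.

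These calls rest on few samples. Leaving out control replicate 1 left 0 higher and 0 lower, control replicate 2 left 0 and 3, CBP replicate 1 left 2 and 5 and CBP replicate 2 left 0 and 0, while leaving out NAP-1 replicate 1 gave 20 and 14 and NAP-1 replicate 2 gave 20 and 15. With the trend of the difference on transcript length removed, 5 members were called higher and 9 lower of 130, and with median-of-ratios scaling 15 and 6. Taking out the length trend ended the call of 6 members. CR42862 went from -1.91 to -0.69 (adjusted p = 0.252), CR34335 from 1.93 to 1.40 (0.111), CR40469 from 1.73 to 1.03 (0.0516), CR43264 from 1.14 to 0.63 (0.179) and CR44316 from 1.91 to 1.31 (0.0826), while CR44704 kept nearly its value, 1.88 and 1.85 (0.0543). The called risers had a median length of 436 nt and those that fell one of 754 nt.

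The protein-coding genes that overlap the called members moved with them in some cases. CR43900 shares exons with Cam, the calcium sensor calmodulin, on the same strand. Cam was at 33.1 and 18.8 RPKM in control, 3.82 and 18.5 RPKM in NAP-1 knockdown and 1.102 and 0.360 RPKM in CBP knockdown, a log2 difference of -3.94 (adjusted p = 0.0166), and its samples stand in the same order as those of CR43900. CR45197 shares exons with sgg, which encodes the kinase GSK3 (-1.47, adjusted p = 0.0342), and CR45717 with MFS3, a gene of the major facilitator family of transporters (-1.31, adjusted p = 0.0383). All 3 called members with an analysed same-strand partner thus had a partner that fell as well. On the other strand, CG10527 over CR44704 rose from 25.7 and 24.3 RPKM in control to 78.0 and 87.8 RPKM in CBP knockdown (1.69, adjusted p = 0.0181). Mapmodulin, whose gene holds CR44417 on the other strand without exon overlap, fell (-3.42, adjusted p = 0.0182), while CR44417 was above 0.00105 RPKM only in the CBP samples. CG15093 over CR43964 had a difference of 1.44 that did not pass the test (adjusted p = 0.113).

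Over all members, 44 pairs with an analysed coding gene on the other strand had the same sign in 29 cases, 7 pairs on the same strand in 6 cases, and 82 pairs with the nearest analysed gene in 43 cases. These are descriptions, since overlapping genes can share reads. Of 11 called members with a nearest analysed gene, 3 had one that was called too, in the same direction. Over all analysed genes, 8.5% were called higher and 17.4% lower, and the count of 3 was not tested against these shares. CG14270 near CR34335 rose by 1.36 (adjusted p = 0.0303), CG42376 near CR40469 by 0.91 (adjusted p = 0.0410) and CG15766 near CR43264 by 1.84 (adjusted p = 0.0166). The other nearest genes of called members did not pass the test. Opposite signs were seen in CG13895 near the riser CR43785 (-1.32, adjusted p = 0.0745), Pdcd4 near the riser CR42861 (-0.77, adjusted p = 0.255) and CG42846 near CR42862, which fell (0.73, adjusted p = 0.155). The same sign was seen in CG32212 near CR32207, CG13900 near CR43883, Droj2 near CR44138, CG30046 near CR44316 and CG15784 near CR45517. Of the 11 called members, CR34335, CR42862, CR43264 and CR44138 lie over other coding genes that were not analysed. Those are DIP-alpha, CG33229, CG15765 and CG9813, so the gene named for each is only the nearest analysed.

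**Figure D4:**
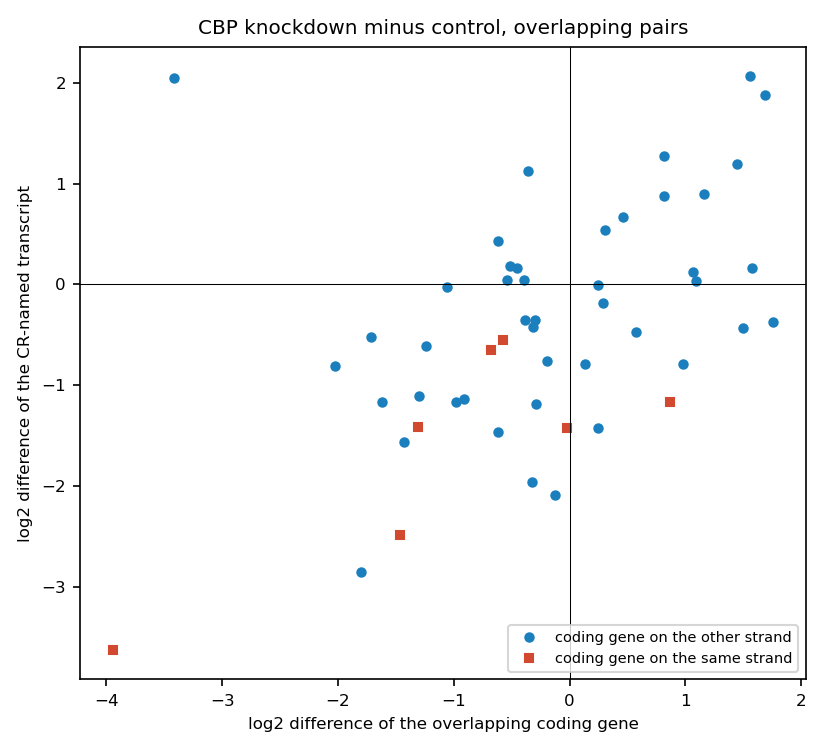
Log2 difference between CBP knockdown and control for CR-named transcripts (vertical) against that of the coding gene each overlaps (horizontal), on the other strand (blue circles, 44 pairs) or the same strand (red squares, 7 pairs). The pair of CR43900 and Cam is at the lower left, and the pair of CR44417 and Mapmodulin at the upper left.

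NAP-1 knockdown against control gave no called CR-named transcript. At an adjusted p under 0.05, 0 members were higher (0% of all genes) and 0 lower (0.0251% of all genes, which is Nap1 itself), and at an unadjusted p under 0.05 limma counted 5 higher (3.79%, against 0.978% of all genes) and 4 lower (3.03%, against 2.53%). Of the 5, all but CR43958 reached the 1 RPKM threshold only through the NAP-1 samples, so that count supports no difference. Sample ranges did not overlap in 17 members that were higher (12.9%, against 8.1% of all genes) and 14 that were lower (10.6%, against 26.2%). Both counts include members that reached the threshold only through their highest group. Among the higher these include CR44976, CR44620, CR45124, CR45367 and CR45433, and among the lower CR43683. The excess over 8.1% therefore supports no difference either. The median log2 difference was -0.02, against -0.13 over all genes. The antisense RNA CR44976, opposite CG17660, had the smallest p among the higher members and was at 0.0129 and 0.0213 RPKM in control, 12.02 and 2.18 RPKM in NAP-1 knockdown and near 0 in both CBP samples (adjusted p = 0.978). It was above 0.1 RPKM only in the NAP-1 samples, which are also what made it a member. The long noncoding RNA CR44589 had the smallest p among the lower members, at 3.41 and 2.37 RPKM in control, 0 and 0.978 RPKM in NAP-1 knockdown and 3.11 and 2.29 RPKM in CBP knockdown (adjusted p = 0.978). CR44620, CR45124, CR43958, CR45367 and CR45433 had differences of 1.102 to 1.60, and CR43900, CR45142, CR32027, CR43683 and CR42862 had differences of -0.73 to -1.70, none past the adjusted threshold.

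NAP-1 knockdown against CBP knockdown gave 0 members higher (1.43% of all genes) and 2 lower (1.66% of all genes), with 14 (10.6%, against 17.7% of all genes) and 18 (13.6%, against 13.9%) at an unadjusted p under 0.05. The 2 were CR44417, which became a member only through its CBP samples and so had to be lower in NAP-1 knockdown, and CR43785, lower in NAP-1 knockdown by a log2 difference of -1.38 ± 0.25 (adjusted p = 0.0455). Without NAP-1 replicate 1 the counts were 10 and 11, and neither was called without any one of the other 5 samples. Closest to the threshold among those higher in NAP-1 knockdown were CR45517 (2.15, adjusted p = 0.0506) and CR45197 (1.83, adjusted p = 0.0510), and among those lower CR42861 (-1.70, adjusted p = 0.0517). This comparison shares its samples with both others. Its unadjusted counts include members that reached the 1 RPKM threshold only through their highest group. These are CR44976, CR45433 and CR31451 among the higher and CR44417, CR41620 and CR44124 among the lower. The unadjusted counts therefore support no difference.

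Replicates of NAP-1 knockdown stood apart more often for these transcripts than for genes at large. On RPKM + 1, the 2 NAP-1 samples were at least 2-fold apart in 53 members (40.2%, against 15.9% of all genes), the control samples in 28 (21.2% against 7.83%) and the CBP samples in 16 (12.1% against 11.96%). These counts were chosen after the values had been seen and carry no test, and members have lower levels than genes at large. In members with a mean of at least 10 RPKM the shares were 32% (NAP-1), 8% (control) and 8% (CBP). In members under 2 RPKM they were 36.7%, 18.4% and 14.3%. The part of level in these shares was not tested. The largest difference between samples of 1 group was in CR45396, antisense to Pdi, a gene for a protein disulfide isomerase: it was at 41.3 RPKM in NAP-1 replicate 1 and 3.4e-05 RPKM in replicate 2, at 0.0616 and 0.454 RPKM in control and at 7.96 and 25.1 RPKM in CBP knockdown. CR42491, which shares exons with the ribosomal protein gene RpL22 on the same strand, was at 0.000103 and 1.70 RPKM in control, 0.0919 and 37.02 RPKM in NAP-1 knockdown and 32.4 and 28.2 RPKM in CBP knockdown. NAP-1 replicate 2 thus had the level of the CBP samples and replicate 1 that of the controls. CR44910, antisense to CG9246, was near 0 in replicate 1 and at 7.82 RPKM in replicate 2 of control, near 0 and at 17.4 RPKM in NAP-1 knockdown and at most 0.00845 RPKM in CBP knockdown.

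In 9 members (6.82%, against 2.23% of all genes) replicate 2 was at least 2-fold above replicate 1 in control and in NAP-1 knockdown: CR42491, CR45501, CR45264, CR44910, CR44115, CR45202, CR44267, CR44986 and CR45604. The reverse held in 3 members (2.27%, against 0.702% of all genes), CR45053, CR41548 and CR44179. CR45501, antisense to parvin, illustrates the first pattern, at 5.96 and 17.8 RPKM in control, 0.602 and 18.9 RPKM in NAP-1 knockdown and 3.58 and 0.487 RPKM in CBP knockdown. A single sample held more than 50% of the total over the 6 samples in 17 members (12.9%, against 3.19% of all genes).

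**Figure D5:**
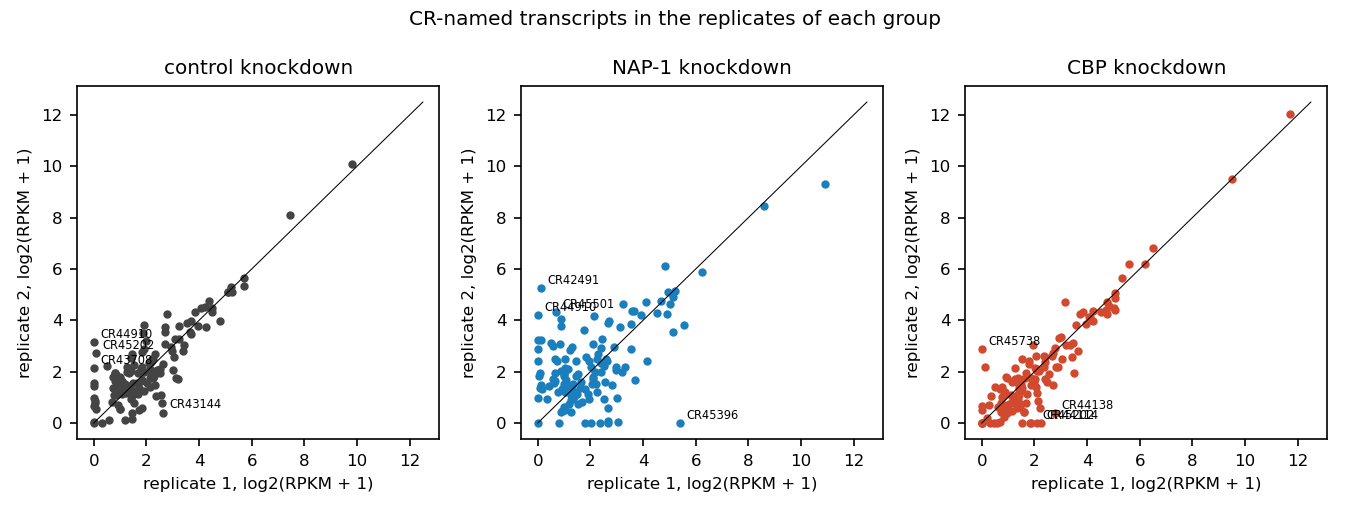
Log2(RPKM + 1) of the 132 CR-named transcripts in replicate 2 against replicate 1 of control, NAP-1 knockdown and CBP knockdown; each point is 1 transcript, the line marks equal values, and the 4 with the largest difference are named. The NAP-1 points scatter most, with CR42491 and CR44910 high in replicate 2 and CR45396 high in replicate 1.

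The other members among the 10 highest by mean were not called in any comparison. CR45141, an antisense RNA opposite the aspartyl-tRNA synthetase gene Aats-asp, was at 33.2 and 33.3 RPKM in control, 34.3 and 29.3 RPKM in NAP-1 knockdown and 31.4 and 21.3 RPKM in CBP knockdown, a log2 difference of -0.35 ± 0.28 in CBP knockdown that did not pass the test. CR44526 was at 36.9 and 33.4 RPKM in control, 36.1 and 34.3 RPKM in NAP-1 knockdown and 25.3 and 20.0 RPKM in CBP knockdown (-0.62 ± 0.25, not called). CR45350, an antisense RNA, was at 36.0 and 38.2 RPKM in control, 46.4 and 13.2 RPKM in NAP-1 knockdown and 72.4 and 71.9 RPKM in CBP knockdown (0.94 ± 0.52, not called). The control and CBP samples of CR45350 each agreed closely, and the NAP-1 samples lay on either side of the control. CR44962, antisense to Karl, was at 51.7 and 49.7 RPKM in control, 27.5 and 68.9 RPKM in NAP-1 knockdown and 26.2 and 17.9 RPKM in CBP knockdown (-1.19 ± 0.44, not called).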

How the data were processed

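The members and gene lists were chosen with earlier results of these data known. RPKM values per feature and a count of alignments per sample came from 1 table deposited by the authors, with samples in rows. The submitters' processing notes name the build dm3, while aligner and counter were not given in the sources used here. Of 16381 feature columns, 11880 were not used, nearly all because their mean was below 1 RPKM or they repeated another column. The rest were summed per symbol, so, outside the targets and markers, isoforms under 1 RPKM are not in a gene's sum. Whether the 16384 columns deposited in all hold every isoform was not tested, and some may be missing. A gene that was not read or not analysed is therefore not shown to be low. Gene sums, shares of RPKM and nearest analysed genes cover only the columns present. Class, place, neighbours and length came from Ensembl BDGP6 and the RefSeq gene table, a later build, so no coordinates are given; 130 members matched. Log2(RPKM + 1) was computed from the deposited values and fitted with limma (version 3.58.1, R 4.3.3), with 1 mean per group over all 6 samples, a variance trend, and Benjamini-Hochberg adjustment over 3987 genes; it was tested on simulated data. An exact permutation test of 2 samples against 2 cannot go below p = 0.333, so none is given. Named were the targets, up to 12 called members per direction (filled to 6 by p), the 10 highest by mean, those beside the threshold, the 3 with the largest replicate difference, and overlapping or nearest coding genes. Other members were named after their values were seen. Of the noncoding RNAs listed by name, Hsromega was read from 1 column at a mean of 0.0263 RPKM, which need not be its total. Both 7SLRNA columns were read at 0.0313 RPKM. Alternatives were pseudocount, minimum level, scaling, samples fitted, replicate block, variance trend, length trend and each sample left out.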

Additional observations from a re-analysis of the deposited data

How the results depend on the processing

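In CBP knockdown against control (11 higher and 7 lower), the fit of only the 4 samples compared called 20 and 15, the length trend removed left 5 higher, and a minimum mean of 5 RPKM left 4 lower of 37. With the replicate number as a block, 7 members were higher and 7 lower. Leaving out 1 sample gave 0 to 20 higher and 0 to 15 lower. In NAP-1 knockdown against CBP knockdown (0 and 2), 1 was higher with a minimum of 5 RPKM, median-of-ratios scaling or the length trend removed, and 0 to 10 with 1 sample left out. The number lower was 0 with a pseudocount of 0.1 RPKM, with only the 4 samples and with the block, 1 with a minimum of 5 RPKM, without the variance trend and with the length trend removed, and 0 to 11 with 1 sample left out. The cause of these shifts was not tested. NAP-1 knockdown against control gave 0 and 0 under every alternative run. The labels do not say whether the replicate numbers pair the samples. Deviations of same-numbered samples correlated at 0.244 (control and NAP-1), 0.126 (control and CBP) and -0.242 (NAP-1 and CBP) across genes. These values differ in sign and do not settle pairing. A block with crossed numbers, added after seeing the data, called 4 higher in NAP-1 knockdown against CBP knockdown. Of 245 values of the 18 members called in CBP knockdown under the alternatives, 156 kept the call and 89 lost it, with none reversed. The calls of their partner genes are not in this count. CR43900 was called in 12 of 14 alternatives, CR34335 in 6. The members' median in CBP knockdown against control ran from -0.20 to 0.82. The upper end is that of the 37 members left by the minimum mean of 5 RPKM, a different set of transcripts. In CBP knockdown, median-of-ratios scaling moved the median of all genes by 0.16, quantile normalization by 0.27 and the length trend by 0.24 (log2), and the genes called went from 339 higher and 693 lower to 494 and 639, 371 and 413, and 438 and 386. A fit with no minimum level was not run. Low depth limits most members.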
